A study of Mus musculus with 31 samples.

Results

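The genes described here make and handle acetylcholine or mark the neurons that release it. They are choline acetyltransferase (Chat), the vesicular acetylcholine transporter (Slc18a3), the high-affinity choline transporter (Slc5a7), acetylcholinesterase (Ache), the motor neuron transcription factors Isl1 and Mnx1, and the calcitonin gene-related peptide genes Calca and Calcb. They were chosen by gene symbol, and every probe set that the platform annotation of the array gave to 1 of these symbols was taken. Of the 8 genes, 7 had a probe set, 8 probe sets in all since Isl1 had 2, out of 18194 genes on 34958 probe sets with 1 symbol. No probe set was listed for Calca, which was not analysed here.

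Acetylcholine is the transmitter of spinal and cranial motor neurons, of preganglionic autonomic neurons and of groups of forebrain neurons. Choline taken up at the nerve ending is acetylated by choline acetyltransferase, packed into vesicles by the vesicular transporter, released, and then cleaved by acetylcholinesterase in the synaptic cleft. Isl1 and Mnx1 are homeodomain factors that specify motor neurons in the embryonic spinal cord, and calcitonin gene-related peptide is made by motor neurons and by sensory neurons. Some T cells are also known to make acetylcholine with the same enzyme.

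Expression was measured on 31 Affymetrix arrays, 1 per sample, in 10 label groups of mouse CD4 cells sorted from spleens and lymph nodes. All groups came from mice with an EGFP reporter in the Foxp3 gene, the transcription factor of regulatory T cells (Treg). In the bicistronic reporter the Foxp3 allele is intact, and in Foxp3deltaEGFP mice it is mutant. The arrays were labelled natural Treg (4 arrays, reporter-positive, not activated), conventional T (3, reporter-negative, not activated), and natural Foxp3delta (2, mutant reporter-positive cells of heterozygous females, not activated). Activated T (4) were reporter-negative cells given antibodies to CD3 and CD28, and activated natural Treg (3) received these antibodies with TGF-beta, for a time that the labels leave out. Induced Treg (5) were reporter-negative cells that became positive in 3 days of both antibodies and TGF-beta, and failed induced Treg (3) were the cells of those cultures that stayed negative. Induced Foxp3delta (3) were made in the same way from mutant males. Arrays labelled induced Treg with IL-2 (2) and induced Foxp3delta with IL-2 (2) held such cells kept for 1 week more in 100 units per ml of interleukin 2.

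The deposited intensities went against the labelled cell type. Of 11 T cell markers measured, 9 lay on average below the 50th percentile of their arrays, and 5 exceeded background on all 31 arrays. Foxp3 read 12.7 ± 2.35 (SD, n = 31) and exceeded background on 17 arrays, whereas all 10 general neuron markers lay above the 90th percentile. The groups are therefore named below as the arrays were labelled. Median intensity ran from 22.2 to 55.4 between arrays, so groups were compared after quantile normalisation, and levels are also given as deposited. In RNA from a mixture of cells, fewer cells of a type and less RNA per cell cannot be told apart. The arrays were divided into 3 sets of 15, 6 and 10 arrays. This was done by clustering their medians, their 99th percentiles and the ratio of 2 hybridisation controls. The labels were spread unevenly over these sets. No label names a batch, and the medians and 99th percentiles come from the expression values. A set is therefore not a known technical batch. Whether arrays that share a label stem from different animals or cultures is not stated. The p-values rest on the spread between those arrays, and that spread can be technical.

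Background on an array was the 95th percentile of 27 bacterial controls that have no matching RNA added, 14.3 over all arrays. Percentiles give the share of the 45101 probe sets with the same or a lower intensity on that array. Levels and percentiles depend on the probes, so those of different probe sets do not measure relative amounts of RNA.

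Chat, the enzyme that makes acetylcholine, read close to background. Its probe set (1440070_at) averaged 24.3 ± 6.18 (SD, n = 31), with a lowest value of 10.0 on activated T 3, a median of 25.2 and a highest of 35.1 on natural Treg 3. It exceeded the background limit on all 31 arrays, by 1.06 to 2.75 times, but exceeded the brightest of the bacterial controls on only 14 arrays. Its mean percentile was 39.8, and it never passed the table's median intensity. Deposited means ran from 14.7 ± 0.399 (n = 3) on the activated natural Treg label to 27.9 ± 3.45 (n = 2) on the natural Foxp3delta label. The 3 arrays of the activated natural Treg label (14.3, 14.8 and 15.1) lay below every array labelled natural Treg, but these arrays were dimmer as a whole, and after normalisation the labels overlapped (18.7 to 21.2 against 21.0 to 29.3).

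Slc18a3, the transporter that fills vesicles with acetylcholine, was far above background on every array. It averaged 391 ± 96.5 (1422203_at), from 218 on activated T 3 over a median of 375 to 658 on induced Treg 3, and exceeded background by 23.1 to 48.6 times. Its mean percentile was 83.5, and it stayed between the percentiles 79.2 and 87.8 throughout.

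Chat and Slc18a3 form one locus, in which the transporter gene is nested in the span of the enzyme gene. In the RefSeq annotation of build GRCm38.p6, Chat spans chr14:32408203-32465909 and Slc18a3 spans chr14:32462437-32464850, both on the minus strand, with start sites 1059 bases apart. The 250 bases before each start site are printed because the genes share this locus, and those of Ache (before its start at position 137288254 of chromosome 5) because Ache and Slc18a3 carry the group differences given later. Capitals mark matches on either strand to the motifs named after the sequences.
Chat, chr14:32465910-32466159, minus strand: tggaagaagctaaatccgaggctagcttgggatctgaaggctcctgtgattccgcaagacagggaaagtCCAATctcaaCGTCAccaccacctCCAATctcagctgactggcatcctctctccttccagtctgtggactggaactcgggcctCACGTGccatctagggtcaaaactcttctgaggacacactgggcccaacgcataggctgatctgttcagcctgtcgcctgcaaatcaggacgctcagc
Slc18a3, chr14:32464851-32465100, minus strand: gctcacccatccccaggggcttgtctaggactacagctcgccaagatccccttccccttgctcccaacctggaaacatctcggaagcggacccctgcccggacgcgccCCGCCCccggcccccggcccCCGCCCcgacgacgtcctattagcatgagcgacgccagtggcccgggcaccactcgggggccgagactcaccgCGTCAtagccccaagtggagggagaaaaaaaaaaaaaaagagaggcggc
Ache, chr5:137288004-137288253, plus strand: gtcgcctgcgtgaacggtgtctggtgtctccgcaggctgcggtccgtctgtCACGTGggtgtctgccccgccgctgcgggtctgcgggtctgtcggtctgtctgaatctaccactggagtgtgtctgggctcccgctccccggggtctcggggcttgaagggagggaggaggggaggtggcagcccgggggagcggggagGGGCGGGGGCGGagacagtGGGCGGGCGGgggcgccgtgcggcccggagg
Of 8 motifs searched, the E-box CACGTG was found upstream of Chat and Ache, and in 6.02% of 32851 promoter windows of the same length. TGACG, the core of the cyclic AMP response element, was found upstream of Chat, Slc18a3, Isl1 and Calca (17.8% of all windows), and the GC box GGGCGG upstream of Slc18a3, Ache and Mnx1 (32.7%). Ache held 4 overlapping or adjacent GC boxes, and its window was 73.6% G and C, against 54.8% for Chat, 66.0% for Slc18a3 and a median of 52.4% over all windows. CCAAT was found upstream of Chat, Isl1, Mnx1 and Calca (33.8% of all windows), TATAAA upstream of Slc5a7 alone among the members (12.4%), and TAATTG upstream of Mnx1 alone (7.17%). No member window held the full cyclic AMP response element TGACGTCA (1.55% of all windows) or TTCAGCACC, the left part of the RE1 element (0.301%).

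Slc5a7, which brings choline back into the nerve ending, averaged 96.2 ± 17.8 (1421428_at), with a lowest value of 59.9 on activated T 3, a median of 100.3 and a highest of 124 on conventional T 2. It exceeded background on all 31 arrays, by 4.83 to 11.6 times, at a mean percentile of 63.7.

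Ache, which cleaves acetylcholine, averaged 1048 ± 270.0 (1422635_at), from 705 on activated natural Treg 2 over a median of 988 to 1856 on activated T 1. Its mean percentile was 93.3, the only member above the 90th percentile, and its percentile moved by an SD of only 1.01 between arrays.

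Of the motor neuron factors, Isl1 read in the middle of the array and Mnx1 near background. Isl1 had 2 probe sets, which averaged 46.8 ± 12.02 (1422720_at, 24.4 to 73.8) and 46.6 ± 12.05 (1450723_at, 25.8 to 74.1), both above background on all 31 arrays and at mean percentiles of 52.5 and 52.4. They did not follow each other after normalisation, when their Pearson r across the 31 arrays was -0.12, against 0.70 as deposited. Mnx1 averaged 16.6 ± 3.49 (1460299_at), from 9.44 on activated natural Treg 1 over a median of 16.7 to 28.5 on natural Foxp3delta 1. It exceeded the background limit on 30 of 31 arrays but the brightest bacterial control on only 1, so its level was not distinguishable from background by the stricter limit.

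Calcb, which encodes the beta form of calcitonin gene-related peptide, averaged 509.7 ± 129 (1422639_at), from 268 on activated natural Treg 1 over a median of 498 to 752 on induced Treg 4. It was above background by 27.1 to 57.6 times and at a mean percentile of 86.8. After normalisation it was the steadiest member, with a coefficient of variation of 8.2% against 10.2% to 16.7% for the other member probe sets. Calcb lies on chromosome 7 at positions 114716555 to 114723368, separated by 79644 bases from Calca.

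**Figure D1:**
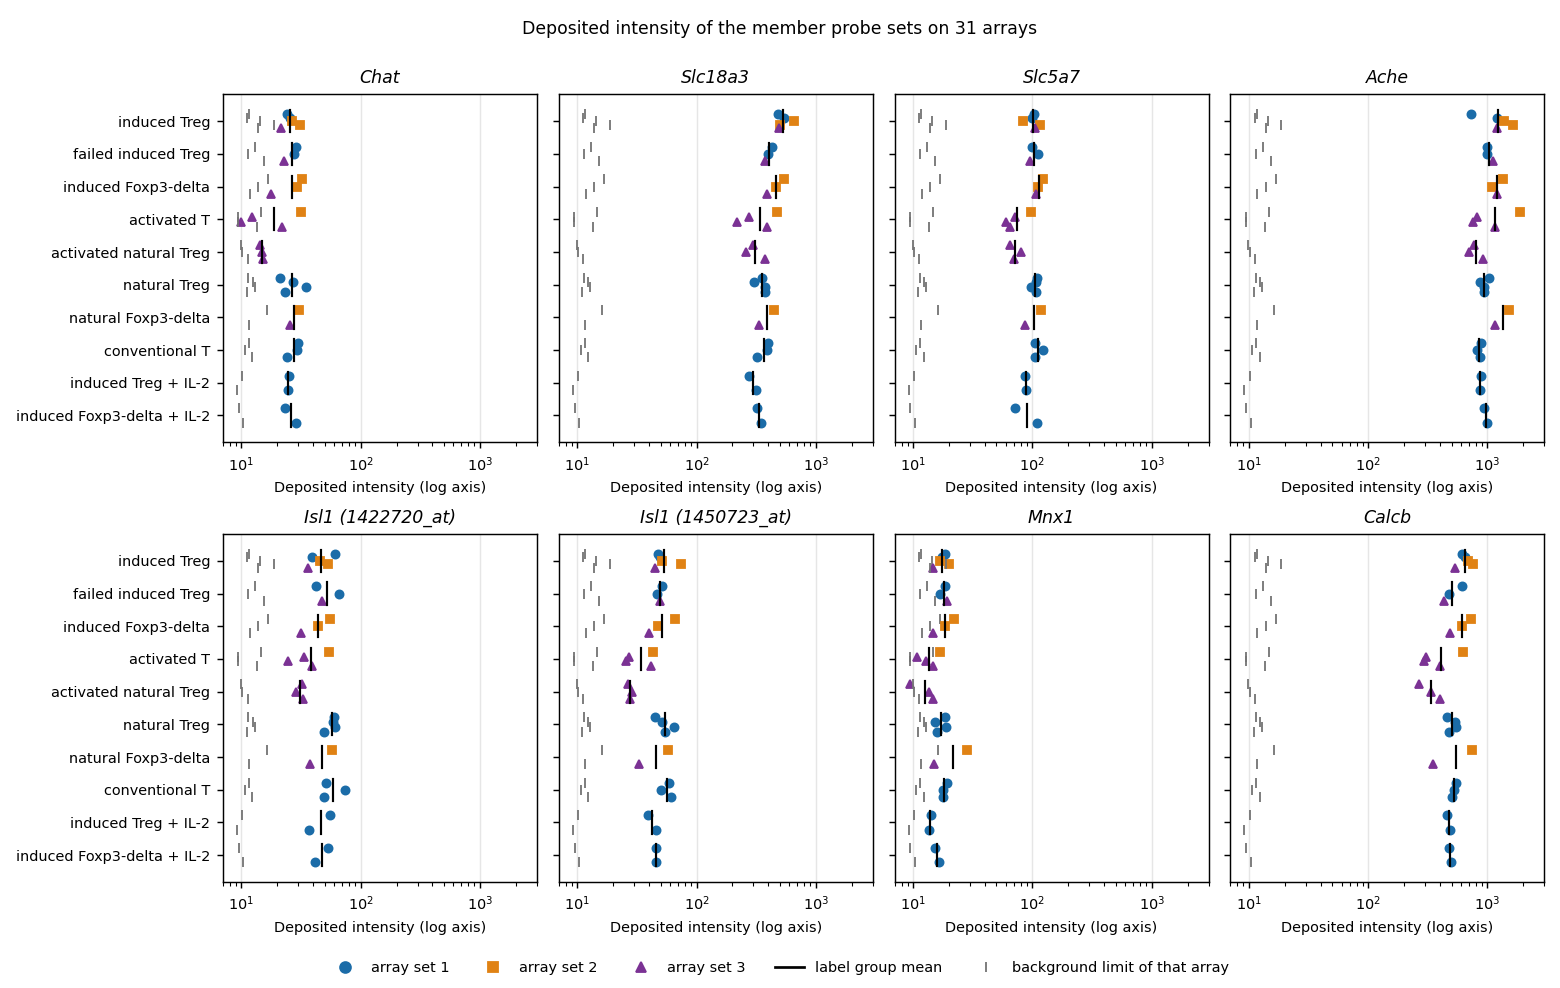
Deposited intensity (log axis) of the 8 member probe sets on 31 arrays, 1 panel per probe set and 1 row per label group; points are arrays, marked by array set, black lines are label group means and grey ticks are each array's background limit. Slc18a3, Ache and Calcb lie far above the ticks on every array, whereas Chat and Mnx1 lie near them.

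The members' positions were set beside those of related genes, with the brightest probe set of each gene and lists written with earlier results of these arrays known. The median of mean percentiles was 63.7 for the 7 members. It was 33.0 for 18 acetylcholine receptors, of which 15 lay below the 50th percentile, and 78.2 for 9 other genes of acetylcholine handling, such as Acly (98.2), which makes acetyl coenzyme A, and Slc44a1 (96.1), a choline transporter. The 18 motor neuron lineage genes had a median of 64.6, with the neurofilament gene Nefh at 7790 ± 2512 (percentile 99.6) and peripherin (Prph) at 426 ± 114 (percentile 84.6). Calcitonin family members and receptors (9 genes) had a median of 58.9, and Ramp1, a subunit of the calcitonin gene-related peptide receptor, averaged 1671 ± 461. Sensory neuron markers (11 genes) had a median of 51.9, with the neuropeptide precursor Tac1 at 789 ± 282, and 6 factors of basal forebrain and striatal cholinergic neurons had one of 33.6.

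**Figure D2:**
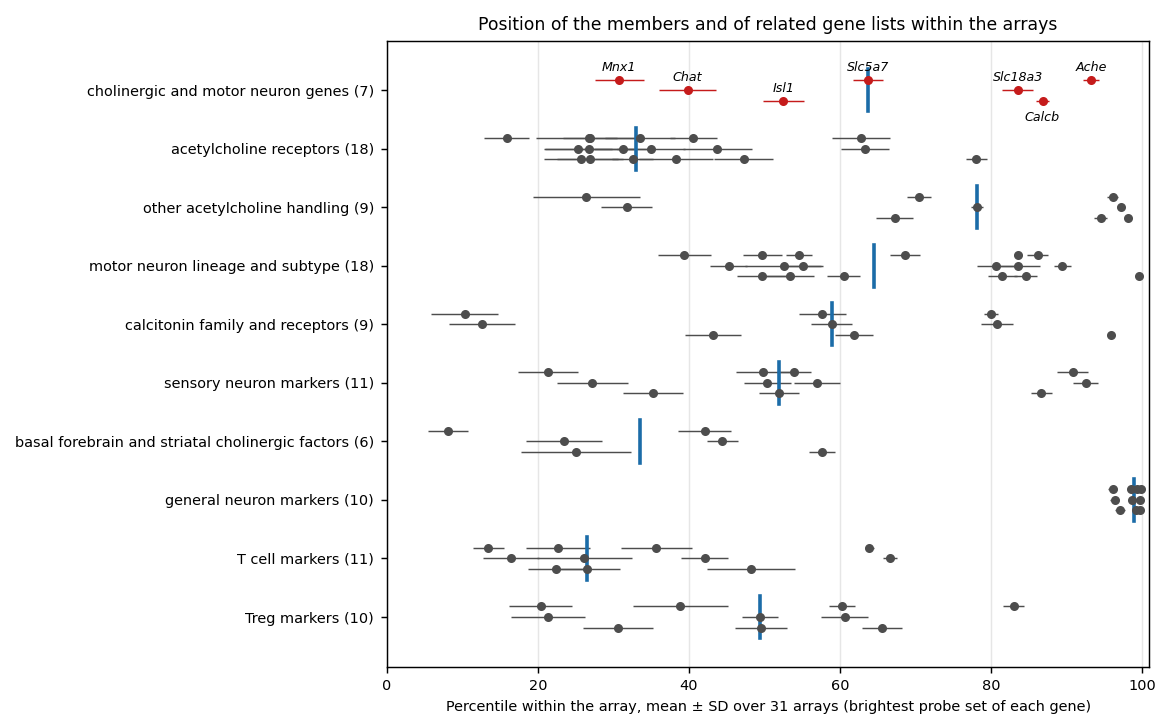
Percentile within the array (mean ± SD over 31 arrays) of each gene's brightest probe set, for the cholinergic and motor neuron genes (red, named) and 9 other lists (grey), with the number of genes measured in brackets and list medians as blue lines. The members run from Mnx1 at 30.8 to Ache at 93.3.

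Differences between label groups were tested on log2(intensity + 16) with limma, 1 mean per label group over all 31 arrays, on the 24669 probe sets above the table's median (39.8) on at least 2 arrays. Differences are on that scale and understate the change of low probe sets. Slc18a3, Slc5a7, Ache, Isl1 and Calcb passed that filter, and Chat and Mnx1 did not, so theirs come from the same fit to all 45037 probe sets other than controls. A probe set was called at a Benjamini-Hochberg adjusted p under 0.05.

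Among the 10 label groups as a whole, Slc18a3 was the only member called (limma moderated F test, adjusted p = 0.0445), where 12.4% of all probe sets were called. That call was lost without any 1 of 22 of the 31 arrays, with adjusted p from 0.00662 to 0.0873 over all 31 omissions. It held without conventional T 2, natural Treg 4, activated natural Treg 2, activated T 1 or 4, either natural Foxp3delta array, failed induced Treg 3 or induced Treg 4 (0.00662). Chat (0.669) and Mnx1 (0.840) were not called in the fit to all probe sets, where 7.31% were.

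Arrays labelled activated T were compared with those labelled conventional T, labels that differ by stimulation without TGF-beta. Ache was the member called higher on the former. Its normalised intensity was 1337, 1056, 1381 and 1193 on activated T 1 to 4 and 856, 872 and 896 on conventional T 1 to 3. Every activated T array was above every conventional T array. The log2 difference was 0.49 (SE 0.13, 95% interval 0.22 to 0.76, limma adjusted p = 0.0312), in a comparison that called 6.17% of all probe sets and in which 21.9% did not overlap between groups. The other 4 tested members were not called, with Slc18a3 at 0.20 (adjusted p = 0.353) and Calcb at -0.07 (0.644).

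No array set held both labels, and with array set as a block the Ache difference was 0.30 (interval -0.08 to 0.67, adjusted p = 0.629), estimated through the other groups. As deposited it was 0.33 (adjusted p = 0.232), where the median of all probe sets shifted by -0.39, and with arrays scaled to a common median it was 0.92 (adjusted p = 0.00155), where that median shifted by 0.12. The call was also lost without activated T 3 (0.44, adjusted p = 0.0836) or conventional T 1, 2 or 3 (0.48, 0.49 and 0.51, adjusted p = 0.101, 0.101 and 0.0825). In the same comparison Cd3e, a subunit of the T cell receptor complex, rose by 0.81 on the log2 scale (adjusted p = 0.00623), the only one of 3 tested T cell markers called. Cd3e also differed between array sets within a label. After normalisation, induced Treg arrays read 28.1 and 26.4 in set 1 and 55.1, 48.2 and 49.5 in sets 2 and 3. Failed induced Treg arrays read 27.2 and 26.4 in set 1 and 46.1 in set 3. The summed normalised level of the 11 T cell markers was 380.02 to 428 on activated T and 359 to 369 on conventional T arrays. None of these markers was at 0. That sum includes Cd3e, at 50.4 to 64.1 against 24.3 to 27.4. The median log2 difference of the 3 tested T cell markers was -0.009. The actin 3′ to 5′ ratio, a sign of RNA quality, was 1.62 to 1.99 on activated T and 1.79 to 1.80 on conventional T arrays. The part of the array set, of these markers and of RNA quality in the Ache difference was not tested.

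Arrays labelled activated natural Treg were compared with those labelled natural Treg, labels that differ by stimulation with TGF-beta. Slc18a3 was called higher on the former. On the arrays activated natural Treg 1, 2 and 3 it read 520.4, 385 and 462 after normalisation, against 349, 282, 347 and 387 on natural Treg 1 to 4. The groups overlapped narrowly, since activated natural Treg 2 lay just below natural Treg 4, and 29.1% of all probe sets did not overlap. The log2 difference was 0.40 (SE 0.13, interval 0.14 to 0.66, limma adjusted p = 0.0330), in a comparison that called 15.6% of all probe sets. No other tested member was called: Slc5a7 differed by 0.19 (adjusted p = 0.317), Ache by 0.16 (0.446) and Calcb by -0.04 (0.796).

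These labels shared no array set either, and with array set as a block the Slc18a3 difference was 0.37 (interval 0.00 to 0.73, adjusted p = 0.395). On the values as deposited it was -0.18 (adjusted p = 0.395), where the median of all probe sets shifted by -0.53. The call was lost without activated natural Treg 1 (0.30, adjusted p = 0.168) or 3 (0.39, 0.0762) and without natural Treg 1, 2 or 3 (0.41, 0.32 and 0.41, adjusted p = 0.0525, 0.109 and 0.0545). Cd3e rose here too, by 0.59 (adjusted p = 0.0141), again as 1 of 3 tested T cell markers. The summed T cell marker level was 381 to 413 on activated natural Treg and 358 to 365 on natural Treg arrays. Cd3e is part of that sum, at 40.9 to 59.3 against 23.7 to 27.8. The median log2 difference of the 3 tested T cell markers was 0.07. As given above, Cd3e also differed between array sets within the induced Treg label. Of 6 tested Treg markers, Itgae rose by 0.40 (adjusted p = 0.0157) and Ikzf2 by 0.39 (0.0382), while Gpr83 fell by 0.62 (0.00407), and the summed level of all 10 measured was 735 to 771 against 725 to 798. The actin ratio was 2.05 to 2.13 against 1.73 to 1.84, without overlap. Their part in the difference was not tested.

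**Figure D3:**
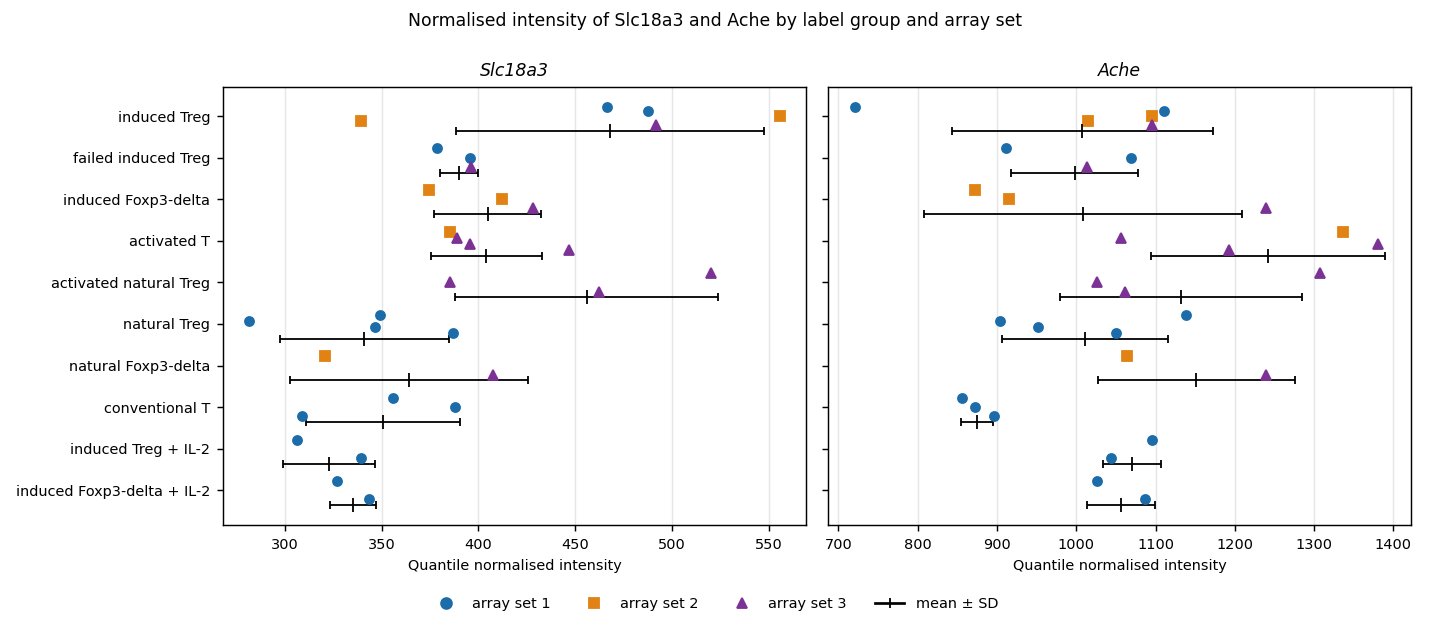
Quantile normalised intensity of Slc18a3 (left) and Ache (right) by label group; points are arrays marked by array set, and bars are the mean ± SD of the group. Activated T arrays lie above conventional T arrays for Ache (1056 to 1381 against 856 to 896), and induced Treg arrays other than the lowest lie above all natural Treg arrays for Slc18a3.

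How induced and natural Treg differ is the question in the series title. Slc18a3 had a normalised intensity of 466.4, 488, 556, 339 and 492 on induced Treg 1 to 5, against 282 to 387 on natural Treg. All but induced Treg 4 lay above the natural Treg arrays. The difference of 0.43 (SE 0.11, interval 0.20 to 0.66) missed the threshold (limma adjusted p = 0.0971) in a comparison that called 0.255% of all probe sets, and within array set 1, which held 2 and 4 of these arrays, it was 0.47. Without induced Treg 4 it was 0.54 and was called (adjusted p = 0.0145). Calcb differed by 0.15 (adjusted p = 0.426), Ache by -0.02 (0.971) and Slc5a7 by -0.05 (0.904).

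A further week in interleukin 2 was examined in both alleles. Slc18a3 had a normalised intensity of 306 and 339.5 on the induced Treg with IL-2 arrays, so that only induced Treg 4, at 339.1, was as low among the induced Treg arrays. The log2 difference was -0.50 (SE 0.14, interval -0.78 to -0.22, limma adjusted p = 0.0598), where 1.79% of all probe sets were called. It was -0.54 within array set 1, with 2 arrays of each label. Chat, which did not enter that fit, did not overlap between these labels (25.4 and 27.4 with IL-2 against 21.9 to 24.6), as was true of 23.8% of the tested probe sets, and its difference of 0.11 was not called (adjusted p = 0.755). Without induced Treg 4 the Slc18a3 difference was -0.61 and was called (adjusted p = 0.0164).

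With the mutant allele, Slc18a3 had a normalised intensity of 327 and 343 with IL-2 and of 374, 412 and 428 without. These groups did not overlap, as was true of 38.1% of all probe sets, and the difference of -0.26 (SE 0.15, interval -0.57 to 0.05) was not called (adjusted p = 0.411, 0.332% of all probe sets called). The arrays with IL-2 lay in array set 1 and those without in sets 2 and 3. Set and label therefore cannot be told apart within these arrays. The difference between the IL-2 effects of the 2 alleles was -0.24 for Slc18a3 (interval -0.66 to 0.18). limma called 0 of 24669 probe sets for that interaction, with 667 at an unadjusted p under 0.05. The interaction includes the mutant comparison and shares its limit.

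In the other comparisons no member was called, whatever its role. Natural Treg against conventional T, where 0.00405% of all probe sets were called, gave 0.20 for Ache (interval -0.07 to 0.47). The Ache arrays of these labels did not overlap, as held for 6.38% of all probe sets, with natural Treg at 904 to 1138. Natural Treg against natural Foxp3delta (0.0892% called) gave -0.19 for Ache and 0.08 for Calcb, and Isl1 (1422720_at) did not overlap between these labels (49.8 to 55.3 against 43.0 and 47.3, with 29.9% of all probe sets apart). The log2 difference of that probe set was 0.14, and it was not called. The other Isl1 probe set (1450723_at) overlapped, at 42.2 to 55.1 against 41.5 and 43.6. Its difference was also 0.14 and was not called either. No array set held both of these labels.

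After normalisation Ache read 720.5 on induced Treg 1 and 1015 to 1111 on induced Treg 2 to 5, and the arrays activated T 1, 3 and 4 lay above all of these. Induced Treg against activated T (0.0568% of all probe sets called) gave -0.31 for Ache (interval -0.55 to -0.07, limma adjusted p = 0.378) and 0.21 for Calcb (interval 0.06 to 0.36, adjusted p = 0.356). Activated natural Treg against activated T (0.799% called) gave 0.16 for Slc18a3 and -0.13 for Ache. Induced Treg against failed induced Treg and against induced Foxp3delta called 0 of 24669 probe sets each (limma), with 1105 and 751 at an unadjusted p under 0.05. Slc18a3 differed by 0.24 (interval -0.01 to 0.48) and 0.19 (-0.06 to 0.43) in them. No tested member was without overlap in these 4 comparisons or between induced and natural Treg, beside 1.95%, 7.63%, 2.74%, 2.05% and 5.97% of all probe sets in the order given. Comparisons that share a label share its arrays and are not independent.

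Over the 11 comparisons, the low members moved little. Chat differences ran from -0.18 to 0.11 with a lowest adjusted p of 0.278, and Mnx1 differences from -0.13 to 0.01 (0.473), both in the fit to all probe sets, and neither was called. That fit called 9.71% of all probe sets in activated natural Treg against natural Treg, 3.11% in activated T against conventional T and 1.21% in induced Treg with IL-2 against induced Treg. It called 0.639% in activated natural Treg against activated T, 0.242% in the IL-2 comparison of the mutant allele, 0.198% in induced against natural Treg and 0.0422% each in natural Treg against natural Foxp3delta and induced Treg against activated T. Slc5a7 ran from -0.25 to 0.19 (0.317). Isl1 ran from -0.22 to 0.17 on one probe set (0.462) and from -0.17 to 0.14 on the other (0.167), and the intervals reached as far as -0.45 and 0.50. Calcb ran from -0.07 to 0.21 (0.356). A miss does not show that these genes were alike in the groups, since the 95% intervals reached -0.56 on the log2 scale for Slc5a7, -0.39 for Chat and 0.36 for Calcb.

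**Figure D4:**
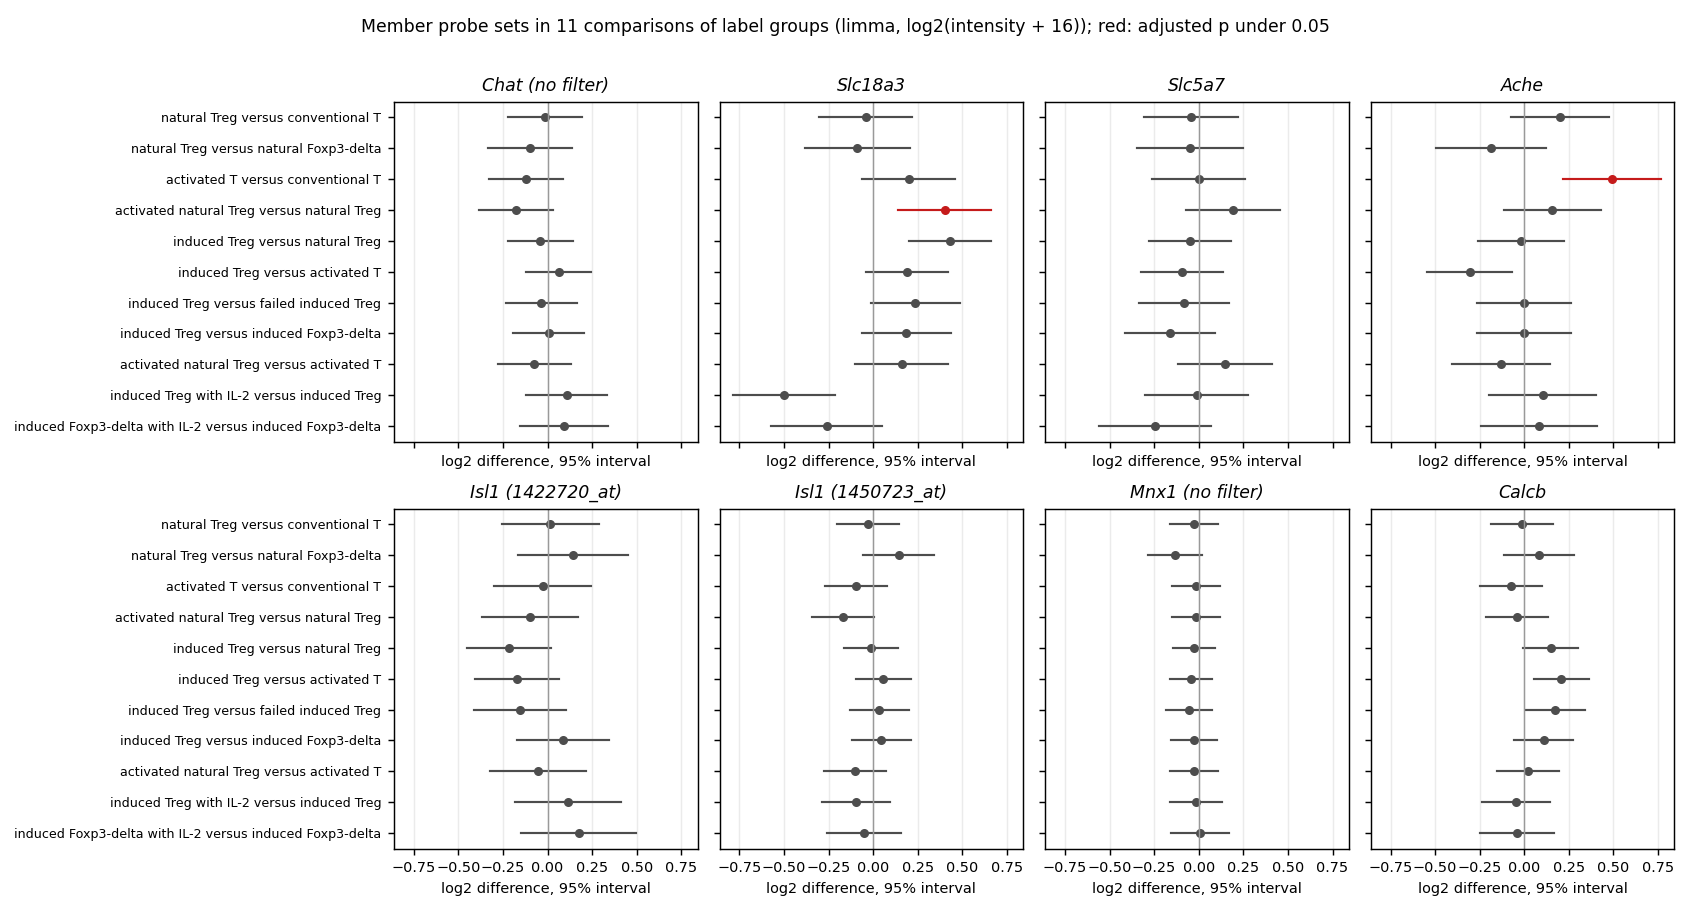
log2 difference and 95% interval (limma) of each member probe set in 11 comparisons of label groups, 1 panel per probe set; red marks an adjusted p under 0.05. The called differences are Ache in activated T against conventional T (0.49) and Slc18a3 in activated natural Treg against natural Treg (0.40).

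Ordered by normalised mean, Ache was highest on the activated T label (1242 ± 148, SD, n = 4), then natural Foxp3delta (1151 ± 124, n = 2) and activated natural Treg (1132 ± 153, n = 3), and lowest on conventional T (875 ± 19.96, n = 3). The step from failed induced Treg (998 ± 80.0, n = 3) down to conventional T was the only one between neighbours, in any member, that exceeded both groups' SDs with no overlap. That step was picked after ordering, and these labels were not among the 11 comparisons. How many of all probe sets have such a step was not counted. Slc18a3 was highest on induced Treg (468 ± 79.5, n = 5) and activated natural Treg (456 ± 67.9, n = 3), and lowest on induced Treg with IL-2 (323 ± 23.7, n = 2). Calcb ran from 558 ± 42.6 (n = 5) on induced Treg to 475 ± 75.0 (n = 2) on natural Foxp3delta. Slc5a7 ran from 112 ± 14.6 (n = 3) on activated natural Treg to 86.6 ± 22.1 (n = 2) on induced Foxp3delta with IL-2. For Chat, the order ran from natural Foxp3delta (27.5 ± 5.56, n = 2) to activated natural Treg (19.8 ± 1.32, n = 3). The 2 Isl1 probe sets gave different orders, topped by natural Treg on one and by conventional T on the other.

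The array sets also differed in several members. Normalised Ache averaged 982, 1049.6 and 1161 in sets 1, 2 and 3 (15, 6 and 10 arrays), and Slc18a3 averaged 364, 398 and 432. Slc5a7 averaged 93.9, 88.9 and 109, while Chat averaged 25.1, 25.3 and 21.2 and Calcb 521, 520.1 and 482. All natural Treg, conventional T and IL-2 arrays lay in set 1, and all activated natural Treg arrays in set 3. Comparisons among the former labels therefore lay within 1 set, whereas between activated natural Treg and any of them the set and the group cannot be told apart within these arrays.

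Whether the members varied together was examined for the 6 genes above background on all arrays, over 15 pairs. Each gene was taken by its brightest probe set, which for Isl1 was 1422720_at, and the other Isl1 probe set did not follow it. After normalisation no pair passed the Benjamini-Hochberg adjustment. The strongest relation by Pearson was between Chat and Slc5a7 (r = -0.41, permutation p = 0.0208, adjusted 0.313; rho = -0.41, permutation p = 0.0229, adjusted 0.172, 31 arrays), and r was -0.33 without the 2 arrays farthest from the median of Chat. Within array sets 1, 2 and 3 it was -0.12, 0.41 and -0.28. Chat and Slc18a3, which share a locus, had an r of -0.19 (permutation p = 0.311, adjusted 0.583) and a rho of -0.20 (permutation p = 0.275, adjusted 0.688), and -0.10, 0.19 and 0.18 within the sets.

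On the values as deposited, 12 of the 15 pairs passed, with r from 0.49 to 0.81 among them, and Chat and Slc18a3 had an r of 0.60 (permutation p = 0.00037, adjusted 0.000617) and a rho of 0.56 (permutation p = 0.00136, adjusted 0.00255). Within array sets 1, 2 and 3, the pairs that passed were 1, 0 and 8. All members share the brightness of an array on those values, whose median intensities ran from 22.2 to 55.4.

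**Figure D5:**
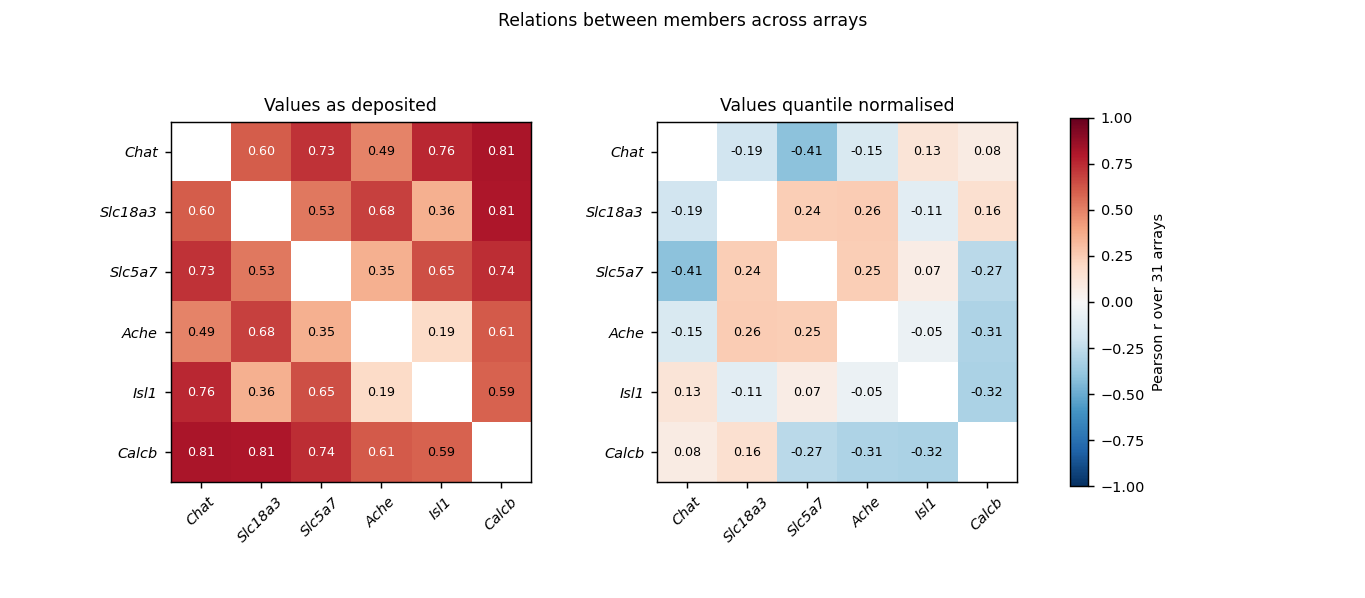
Pearson r between 6 members over 31 arrays, on values as deposited (left) and after quantile normalisation (right), with each r printed in its cell. Every deposited r is positive, from 0.19 to 0.81, whereas normalised values run from -0.41 to 0.26.

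The genes whose normalised pattern over the 31 arrays was most like a member's were taken from 11716 genes by Pearson r, given as a description. They were C2 (r = 0.72), Lrch3 (0.70) and Ube2d1 (0.69) for Chat, and Sall3 (0.73), Ulk3 (0.71) and Fam78a (0.71) for Slc18a3. For Slc5a7 they were Smchd1 (0.71), Tmem229b (0.70) and Vps33b (0.69), and for Ache Gpc3 (0.70), Ttc28 (0.69) and Commd9 (0.66). Isl1, by probe set 1422720_at alone, was most like Mmp17 (0.58), Lzts2 (0.54) and Dhrs4 (0.54), and Calcb like Rbak (0.67), Kif26b (0.67) and Cdyl2 (0.65). With array set means taken out, these r ran from 0.45 to 0.65, and members themselves were left out of the search.

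Genes around the members in the pathway were counted from lists written with earlier results of these arrays known. Of 5 tested acetylcholine receptors, 2 were called among the 10 label groups, Chrna4 and Chrnb2, the subunits of the main brain nicotinic receptor, where 12.4% of all probe sets were called. Chrna4 had a normalised intensity of 180.2 and 149.9 on induced Treg with IL-2, 155, 126 and 104 on activated natural Treg, and 74.5 to 108 on every other array. Chrnb2 rose in activated natural Treg against natural Treg by 0.67 (limma adjusted p = 0.0138), and was not called with array set as a block (0.534). Chrna4 was higher in induced Treg with IL-2 than in induced Treg by 0.77 (limma adjusted p = 0.00152), in activated natural Treg than in activated T by 0.58 (0.0181), and in activated natural Treg than in natural Treg by 0.49 (0.00483). With array set as a block the first pair kept their calls (0.73, adjusted p = 0.00727, and 0.55, 0.0110), and the last was 0.47 (adjusted p = 0.178).

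The counts that follow stand beside 12.4% of all probe sets called among the 10 label groups. They also stand beside 15.6% in activated natural Treg against natural Treg and 6.17% in activated T against conventional T. Among the 10 label groups, 2 genes of acetylcholine handling were called. They were Sv2a (limma moderated F test, adjusted p = 0.0238) and, by a probe set other than its brightest, Acly. Each other list below had 1 gene called by any of its probe sets. Of 7 other tested genes of acetylcholine handling, Bche, which also cleaves acetylcholine, rose in activated natural Treg against natural Treg by 0.50 (limma adjusted p = 0.0113), and the vesicle protein Sv2a fell in activated T against conventional T by 0.42 (0.0336). Of 16 tested motor neuron lineage genes, Esrrg fell by 0.36 in activated natural Treg against natural Treg (0.0188), and Olig2 was called among the 10 label groups (0.0455). Of 8 tested sensory neuron markers, Ntrk2, a neurotrophin receptor, rose in activated T against conventional T by 0.58 (0.0126) and in activated natural Treg against natural Treg by 0.82 (0.000601), and Runx1 fell in the latter by 0.40 (0.0346). Of 10 tested general neuron markers, Rbfox3 fell in the former by 0.70 (0.0386), and Syt1 was called among the 10 label groups (0.0411). Of 6 tested calcitonin family genes, Calcrl, the receptor of calcitonin gene-related peptide, fell by 0.51 in activated natural Treg against natural Treg (0.0141). None of these differences between labels was called with array set as a block (adjusted p from 0.139 to 0.907). The median log2 difference in activated natural Treg against natural Treg was 0.16 for the 5 tested members and 0.30 for the 5 tested receptors. It was -0.00 over all probe sets. The members did not all move one way. Slc18a3 (0.40), Slc5a7 (0.19) and Ache (0.16) were higher, and Calcb (-0.04) and Isl1 (-0.10 and -0.17) lower. Of these, only Slc18a3 was called.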

How the data were processed

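The authors deposited 1 table of linear intensity per probe set and array. The steps by which probes were summarised and arrays scaled were not given in the sources used here. Scale factors and centring therefore remain unknown. Probe sets were named from the platform annotation, and 932 with several symbols and 9211 with none listed were not named. Intensities were quantile normalised, and log2(intensity + 16) of the normalised values was fitted with limma 3.58.1 in R 4.3.3 (lmFit, eBayes), leaving out 64 control probe sets. Each called difference was tried on values as deposited, on array medians, with other pseudocounts and filters, with array set or replicate number as a block, and without each array in turn. All 8 member probe sets are named, as are the 3 genes most like each member. Other genes were named from those that, in their list, were among the 3 with the smallest adjusted p or the 3 with the highest percentile, and Foxp3 was named as the gene that defines the labels. Members and lists were chosen with earlier results of these data known. Array sets came from Ward clustering, cut into 3 sets. On simulated data, 66% of probe sets changed by 0.5 on the log2 scale and 100% of those changed by 1 were recovered for activated T against conventional T, among 24669. These rates do not show how well a label difference is told from one between array sets, since no set held both labels. The number of arrays limits precision. Sequences are from RefSeq, GRCm38.p6, which gave 7 of the 8 members a promoter window. All 31 columns were mapped to a sample, leaving 0 unmapped. Tables and motifs were handled with Python 3.11.15 and pandas 2.3.3, and permutation tests drew 100000 resamples, or all orders where fewer than 10 arrays were related.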

Additional observations from a re-analysis of the deposited data

Results flagged for a closer look

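One array stood apart in its label group. Ache had a normalised intensity of 720.5 on induced Treg 1, whereas the other 4 arrays of that label read 1015 to 1111. On the normalised log2 scale the gap to the nearest array was 0.791 of the group's whole range, above the critical value of 0.71. As deposited, where this test was not run, the array read 726.3 and the others 1190.3 to 1621. This was the only such array among 24 tests of a member probe set in a group of 4 or 5, and chance flags about 1 in 20.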

How the results depend on the processing

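Counts of members called moved as follows. Among the 10 label groups, 1 member was called, against 4 on values as deposited (where 13786 of 25683 probe sets were called), 3 after scaling to array medians (6869 of 24669, against 3055 of 24669 otherwise), and 0 with a pseudocount of 1, with no filter, with array set as a block or with the replicate block. For activated T against conventional T the count of 1 became 2 as deposited, which were Slc5a7 (-0.52) and Isl1 (-0.55) and not Ache, 2 with array medians, which were Ache and Slc18a3 (0.40), and 0 with array set as a block. All calls there rose from 1522 to 6096 and 6603, and fell to 20 with the block. For activated natural Treg against natural Treg it became 3 as deposited (16145 probe sets called, against 3841), which were Slc5a7 (-0.46), Calcb (-0.58) and Isl1 (-0.63 and -0.67), all lower and without Slc18a3, and 0 with array set as a block, with the replicate block (Slc18a3 0.39, adjusted p = 0.0527) and with only the compared groups (adjusted p = 0.0652). Array medians gave 2 members (Slc18a3 and Calcb) for induced Treg against natural Treg (2693 probe sets called, against 63) and 1 (Slc18a3) for induced Treg with IL-2 against induced Treg (802, against 441). The values as deposited gave 4 for induced Treg against activated T (16079, against 14), and all these counts of members were otherwise 0. Slc18a3 in activated natural Treg against natural Treg turned to -0.18 as deposited. Pairs of members that varied together rose from 0 to 12 as deposited. Leaving out 1 array gave 0 to 1 members in these comparisons other than induced Treg against activated T, which stayed at 0, and among the 10 label groups. As deposited, the median of all probe sets shifted by -0.39 in activated T against conventional T and by 0.45 in induced Treg against activated T. Replicate numbers were not used to pair the arrays in the main fit. Same-numbered arrays' deviations correlated between -0.22 and 0.32, and no comparison had every pair above 0.1. Induced Treg and failed induced Treg, which came from the same cultures, had 0.31, 0.32 and 0.04 for replicates 1, 2 and 3. Replicates 1 and 2 of both labels lay in array set 1. Replicate 3 lay in set 2 for induced Treg and in set 3 for failed induced Treg. The part of the array set in these values was not tested. Whether the numbers pair those arrays is not stated. Background by the brightest control left Chat above it on 14 arrays and Mnx1 on 1. The cause of these changes was not tested.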
